A study of Mus musculus with 24 samples.

Results

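The promoters described are those of 6 genes that mark dividing granule neuron precursors or drive their division, namely Atoh1, Myc, Mycn, Ccnd1, Ccnd2 and Cdk6. They were chosen by name and are 6 of the 21938 protein-coding genes whose promoters were examined. A promoter is here a window of 6 kb centred on the 5′ end that GENCODE gives for the gene. The measurement was trimethylation of histone H3 at lysine 27 (H3K27me3), read by CUT&RUN, in which an antibody brings a nuclease to the marked chromatin and the released DNA is sequenced. The value given is the percentage of the window that lies under the peaks called in 1 library, so that 1% is 60 bases. A window without a peak lay below the threshold of the peak caller in that library and was not shown to lack the mark.

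Granule neuron precursors (GNPs) divide in the outer layer of the young cerebellum under Sonic hedgehog, which acts through N-MYC and the D-type cyclins, and they leave the cell cycle to become cerebellar granule neurons (CGNs). Atoh1, a proneural transcription factor, keeps the precursor state and is shut off at cell cycle exit. H3K27me3 is laid down by Polycomb repressive complex 2, whose catalytic subunit is EZH2, it is removed by the KDM6 demethylases, and it is known for repressing developmental genes whose promoters are rich in CpG dinucleotides.

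The 24 libraries came from mouse CGN cultures, in 8 groups of 3 replicates. GNPs were isolated on Percoll from CD-1 IGS mice at postnatal days 6 to 8, each replicate was a culture from pooled litters, and 1 µM cytosine arabinoside, which stops dividing non-neuronal cells, was given on DIV2 (day in vitro 2), hence after the DIV1 harvest. The time course was harvested at DIV1, DIV3, DIV5 and DIV7 without further treatment. In the drug experiments, 5 µM GSK-126, an EZH2 inhibitor, or 1 µM GSK-J4, a KDM6 inhibitor, was present from DIV1 until harvest on DIV5, each with 3 DMSO vehicle libraries of its own. The comparisons ask whether H3K27me3 at genes of the precursor state changes as CGNs mature and whether it depends on EZH2 or on the demethylases. Cultures hold many cells, so a smaller share of cells with the mark and less mark per cell cannot be told apart.

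The peak lists differed greatly in size, and this touches every result. Their summed length ran from 1.07 to 6.57 Mb. It averaged 1.57 ± 0.468 Mb in GSK-126 against 3.69 ± 0.482 Mb in its DMSO set (SD, n = 3), and an exact two-sided permutation test gave p = 0.1, the smallest that 3 against 3 libraries allow. DIV7 lists averaged 1.56 ± 0.598 Mb and DIV1 lists 3.53 ± 1.99 Mb (exact permutation p = 0.2). GSK-J4 lists averaged 2.04 ± 0.928 Mb and those of its DMSO set 1.89 ± 0.193 Mb (exact permutation p = 1). In the time course, replicate 1 of DIV1, DIV3 and DIV7 and replicate 2 of DIV7 gave short lists of 1.11 to 1.33 Mb. GSK-126 replicate 3 stood apart in another way, with peaks at 3285 promoters, more than its DMSO libraries (2805 to 3179) and than GSK-126 replicates 1 and 2 (2034 and 1348). Read depth is unknown, and a shorter list can hold fewer of the weak peaks whatever the chromatin state.

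All 6 promoters carried a peak in at least 2 libraries, but none in every library. Ccnd2 had one in 18 of 24 libraries, Ccnd1 in 17, Myc in 16, Atoh1 and Cdk6 in 14 and Mycn in 2. For scale, 8.22% of all promoters had a peak in 14 libraries or more. The peaks had low fold enrichments. The 129 peaks in the 6 windows had a median fold enrichment of 3.15 over the local background of the caller, against 3.65 for the 79901 peaks in all promoter windows, and 125 of the 129 lay below the median fold enrichment of their own library. Only 4 of the 129 (3.10%) reached a −log10 q of 2, against 11.4% over all promoters. Ranked by p-value within their own lists they lay near the middle, with a median rank at 55.4% of the list.

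For each member but Mycn, whose peaks were in 2 libraries, 1 stretch of its peaks is printed to show the kind of sequence that was recovered. It is the 150 bases, outside untranslated exons, with the most bases under peaks summed over the libraries, read 5′ to 3′ on the strand of the gene from the GRCm38 (mm10) assembly, with CpG dinucleotides in capitals. The Atoh1 stretch (chr6:64729785-64729934, plus strand) lies in the single coding exon and overlapped peaks of 11 libraries. The Myc stretch (chr15:61986660-61986809, plus strand) lies in the first intron and overlapped peaks of 7 libraries. The Ccnd1 stretch (chr7:144942291-144942440, minus strand) lies upstream of the gene and overlapped peaks of 14 libraries. The Ccnd2 stretch (chr6:127153574-127153723, minus strand) is also upstream, within an antisense transcript gene, and was hit in 10 libraries, while a further upstream site of this gene had peaks in 14. The Cdk6 stretch (chr5:3342110-3342259, plus strand) is intronic and was hit in 10 libraries.
Atoh1: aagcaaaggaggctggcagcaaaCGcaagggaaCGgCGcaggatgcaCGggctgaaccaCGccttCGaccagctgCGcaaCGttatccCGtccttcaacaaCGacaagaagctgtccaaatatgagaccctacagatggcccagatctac
Myc: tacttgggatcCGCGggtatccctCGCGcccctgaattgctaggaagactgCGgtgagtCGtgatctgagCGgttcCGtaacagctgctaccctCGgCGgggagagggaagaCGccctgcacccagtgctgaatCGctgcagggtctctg
Ccnd1: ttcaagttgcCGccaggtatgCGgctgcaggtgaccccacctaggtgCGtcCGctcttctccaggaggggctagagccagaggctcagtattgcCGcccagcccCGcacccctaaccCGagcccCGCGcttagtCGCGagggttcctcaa
Ccnd2: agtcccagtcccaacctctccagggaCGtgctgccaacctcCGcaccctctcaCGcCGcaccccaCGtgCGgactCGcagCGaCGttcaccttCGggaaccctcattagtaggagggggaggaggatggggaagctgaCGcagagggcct
Cdk6: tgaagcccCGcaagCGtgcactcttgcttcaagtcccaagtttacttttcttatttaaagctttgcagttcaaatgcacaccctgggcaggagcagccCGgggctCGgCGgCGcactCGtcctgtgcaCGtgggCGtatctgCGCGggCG

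These stretches held 10 CpG in Atoh1, 12 in Myc, 11 in Ccnd1, 11 in Ccnd2 and 12 in Cdk6. The whole windows were CpG rich as well, with 191 CpG at Atoh1, 239 at Mycn and 274 to 290 at the other 4 genes, against a median of 108 over all windows and of 134 over windows with a peak in 14 libraries or more. Mycn, with more CpG than 96.0% of all windows, had peaks in only 2 libraries. Bases that lay under a peak in any library held 6.13 CpG per 100 bases at Atoh1 against 2.39 in the rest of its window. The same values were 6.75 and 3.96 at Myc, 6.45 and 4.04 at Ccnd1, and 6.92 and 3.85 at Cdk6. They were near each other at Ccnd2, with 4.71 and 4.68, and at Mycn, with 3.90 and 3.99.

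**Figure D1:**
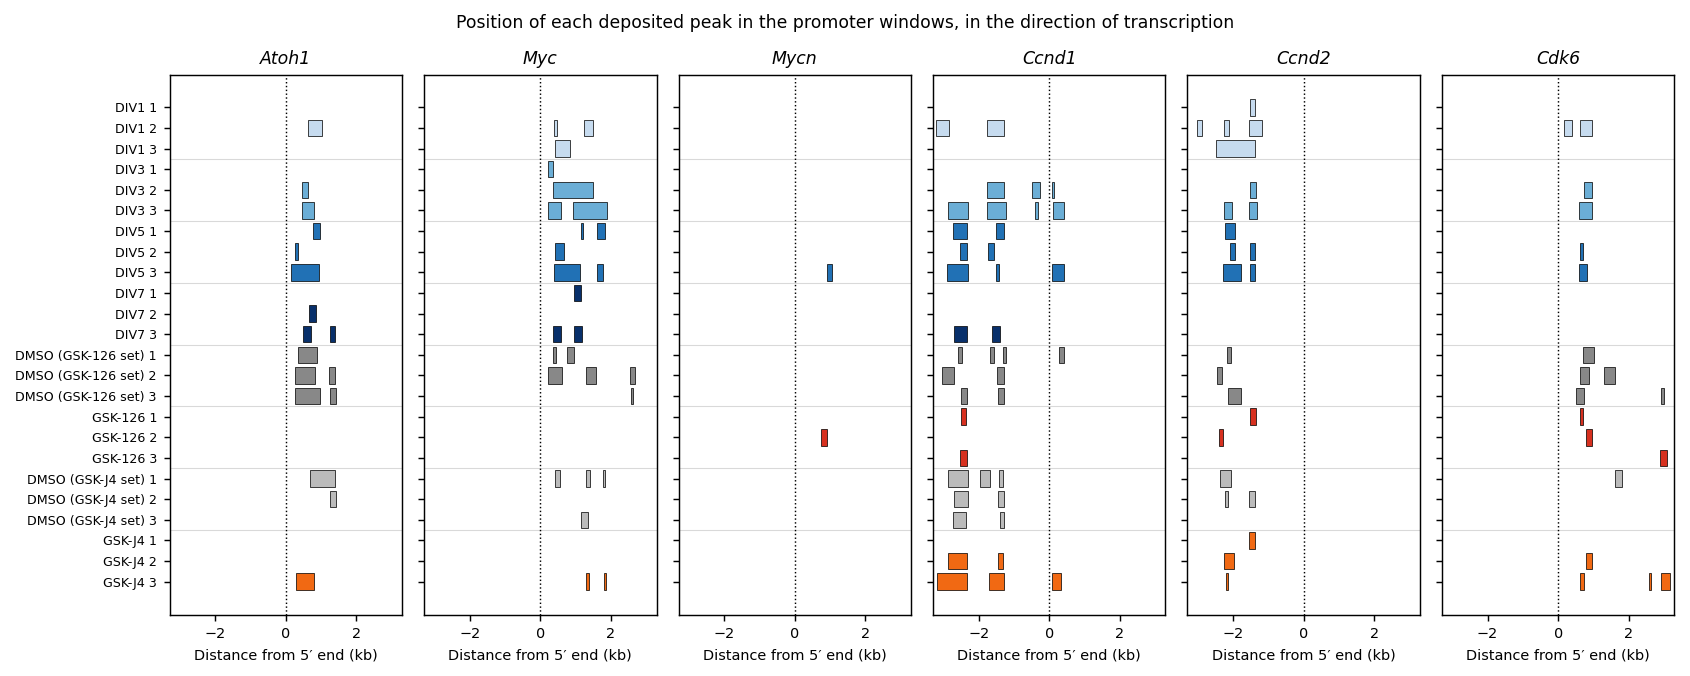
Peaks called in the 6 promoter windows, 1 row per library and 1 panel per gene. The horizontal axis is the distance from the 5′ end in kb in the direction of transcription, each bar is 1 deposited peak and colours mark the groups. Atoh1, Myc, Mycn and Cdk6 peaks lie to the right of the 5′ end and all 24 Ccnd2 peaks to its left, and the 3 GSK-126 rows are empty at Atoh1 and Myc.

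Within the windows, most peaks of a gene lay on 1 side of its 5′ end. Over all promoters, 69.2% of peaks were centred downstream of the 5′ end. All 17 Atoh1 peaks, all 27 Myc peaks, both Mycn peaks and all 19 Cdk6 peaks were centred downstream. At Ccnd1, 35 of 40 peaks were centred upstream, and at Ccnd2 all 24 were. Ccnd1 had a far upstream site from −3216 to −2300 bases relative to the 5′ end, seen in 16 libraries, and a nearer one from −1951 to −1232, seen in 15 libraries. A further Ccnd1 site lay from 65 to 425 bases downstream and was seen in 5 libraries. The sites named here were read off the peaks after they were seen.

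Atoh1 (chr6:64729125-64731245, plus strand) was the promoter with the clearest difference between groups. In the DMSO set of GSK-126 its window was 9.10%, 12% and 14.4% covered in replicates 1, 2 and 3, and it was 0% covered in all 3 GSK-126 libraries. GSK-126 lay below DMSO without overlap, as at 46.0% of the 2385 promoters tested for this drug. The nearest peak to the Atoh1 5′ end in the GSK-126 libraries lay 232366, 652017 and 152555 bases away. In the libraries of other groups without an Atoh1 peak it lay 415586 to 943224 bases away, so such distances were not particular to GSK-126. The main Atoh1 peak in the DMSO libraries ran over the coding exon, from 264 to 971 bases downstream at its widest, with fold enrichments of 3.27, 3.09 and 3.35. A second small peak further down, where the coding exon gives way to the untranslated end, was called in 2 of the 3 libraries.

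In the time course Atoh1 was low and varied as much within a day as between days. DIV1 libraries were 0%, 6.47% and 0% covered, DIV3 libraries 0%, 2.92% and 5.77%, DIV5 libraries 3.33%, 1.15% and 13.1%, and DIV7 libraries 0%, 2.97% and 6.57%. A peak was thus present in 1, 2, 3 and 2 of the 3 libraries of these days, and every day overlapped every other. DIV7 differed from DIV1 by 1.02 points (SE 3.32, 95% interval −6.39 to 8.43). In the GSK-J4 experiment its DMSO libraries gave 11.9%, 2.78% and 0%, and GSK-J4 gave 0%, 0% and 8.25%, again with overlap. The GSK-J4 replicate 3 peak was the strongest Atoh1 peak of the series, with a fold enrichment of 3.62 and a −log10 q of 2.1.

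Myc (chr15:61985391-61990374, plus strand) encodes the transcription factor c-MYC, which drives growth and cell cycle entry. Its DIV3 libraries were 2.27%, 18.9% and 22.2% covered, with replicates 2 and 3 the highest of all 24 libraries. DIV1 gave 0%, 5.80% and 6.73%, DIV5 gave 5.00%, 4.20% and 15%, and DIV7 gave 3.35%, 0% and 7.40%. DIV3 exceeded DIV1 by 10.3 points with an interval of −0.887 to 21.4, which includes 0, and its replicate 1 lay within the DIV1 range. Without DIV3 replicate 1 the difference was 16.4 points (8.02 to 24.7, limma adjusted p = 0.161), and without replicate 1 of every day 14.3 points (4.38 to 24.2, adjusted p = 0.297). The peaks began in exon 1 and ran into intron 1, as far as 1882 bases downstream.

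In the DMSO set of GSK-126, Myc was 4.72%, 14.1% and 1.28% covered. In GSK-126 it was 0% in all 3 libraries, with no overlap, as at 46.0% of the promoters tested. The nearest peak to Myc in those 3 libraries was 171391 bases away or more. In the libraries of other groups without a Myc peak it lay from 14691 bases away (GSK-J4 replicate 2) to 171398 (DIV1 replicate 1). The DMSO value of replicate 3 was a single peak over a coding exon, from 2560 to 2636 bases downstream, and replicate 2 had one at the same place. No other group had a Myc peak there. With GSK-J4, the vehicle libraries gave 5.00%, 0% and 3.70% and the treated ones 0%, 0% and 2.60%.

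Mycn (chr12:12936093-12941914, minus strand) encodes N-MYC, the member of the family through which Sonic hedgehog drives GNP division. A peak was called only in DIV5 replicate 3, where 2.47% of the window was covered, and in GSK-126 replicate 2, with 2.72%. The other 22 libraries were at 0%, DIV1 and DIV7 included. Both peaks lay between 742 and 1049 bases downstream, with fold enrichments of 4.29 and 3.96. The GSK-126 peak ranked 5188 of the 5401 in its list by p-value, and Mycn was covered in too few libraries to be tested under the filter used here.

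Ccnd1 (chr7:144929931-144939925, minus strand) encodes cyclin D1, which activates CDK4 and CDK6 early in the cell cycle. Its coverage was 0%, 10.6% and 0% at DIV1, 0%, 12.7% and 25.4% at DIV3, 10.6%, 6.10% and 17.2% at DIV5, and 0%, 0% and 9.47% at DIV7. The highest mean values were those of DIV3 and DIV5, 12.7% ± 12.7 and 11.3% ± 5.57 (SD, n = 3), but the days overlapped. The DMSO set of GSK-126 gave 7.42%, 8.35% and 6.35%, and GSK-126 gave 2.72%, 0% and 3.5%. All 3 treated libraries thus lay below all 3 controls, as at 46.0% of the promoters tested. The far upstream site had a peak in all 3 DMSO libraries and in 2 treated ones. The nearer upstream site had one in all 3 DMSO libraries and in none with GSK-126. These sites were drawn after the peaks were seen, and a difference between them was not tested. For GSK-J4 the DMSO values were 15.9%, 9.25% and 8.27%, and GSK-J4 gave 0%, 11.4% and 21.9%.

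Ccnd2 (chr6:127125162-127152193, minus strand) encodes cyclin D2, the D-type cyclin known for its high level in dividing GNPs. It was the member with the largest difference between DIV1 and DIV7. DIV1 libraries were 2.65%, 10.4% and 18.4% covered and all 3 DIV7 libraries were at 0%. DIV3 gave 0%, 2.80% and 7.90% and DIV5 gave 4.90%, 4.50% and 10.8%. The DIV1 and DIV7 libraries did not overlap, which held for 17.5% of the 3584 promoters tested over the time course in that direction. The DMSO set of GSK-126 gave 1.95%, 2.22% and 6.20% and GSK-126 gave 3.03%, 1.73% and 0%, with overlap. The GSK-J4 controls gave 5.07%, 4.38% and 0% and GSK-J4 gave 3.03%, 4.68% and 1.02%. All Ccnd2 peaks were upstream of the gene, and inside the antisense gene 9330179D12Rik, so a peak there cannot be given to one of the genes.

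Cdk6 (chr5:3341485-3531008, plus strand) encodes the kinase partner of the D-type cyclins. Its time course values were 0%, 9.55% and 0% at DIV1 and 0%, 3.98% and 6.05% at DIV3. They were 0%, 1.30% and 3.60% at DIV5 and 0% in all 3 DIV7 libraries. A value of 0% did not mean that no peak was near. Just outside the window, a peak lay 3551 and 3574 bases upstream in DIV7 replicates 2 and 3. One lay 3572 and 3545 bases upstream in DIV1 replicates 1 and 3, 3554 in DIV3 replicate 1 and 3574 in DIV5 replicate 1. In DIV7 replicate 1 the nearest peak was 2186867 bases away. The DMSO set of GSK-126 gave 5.37%, 9.38% and 4.90%, and GSK-126 gave 1.68%, 2.5% and 1.68%. All 3 treated libraries lay below the controls, as at 46.0% of the promoters tested, and each had a Cdk6 peak. That of replicate 3 was not at the intronic site of the DMSO libraries but from 2899 to 3097 bases downstream. The GSK-J4 controls gave 3.33%, 0% and 0% and GSK-J4 gave 0%, 2.52% and 4.22%. In these control replicates 2 and 3 a peak lay 3544 bases upstream, and in GSK-J4 replicate 1 one lay 4007 bases upstream. The strongest peak of any member was the one at Cdk6 in GSK-J4 replicate 3, with a −log10 q of 2.80, from 2913 to 3181 bases downstream over a coding exon and the intron beside it.

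**Figure D2:**
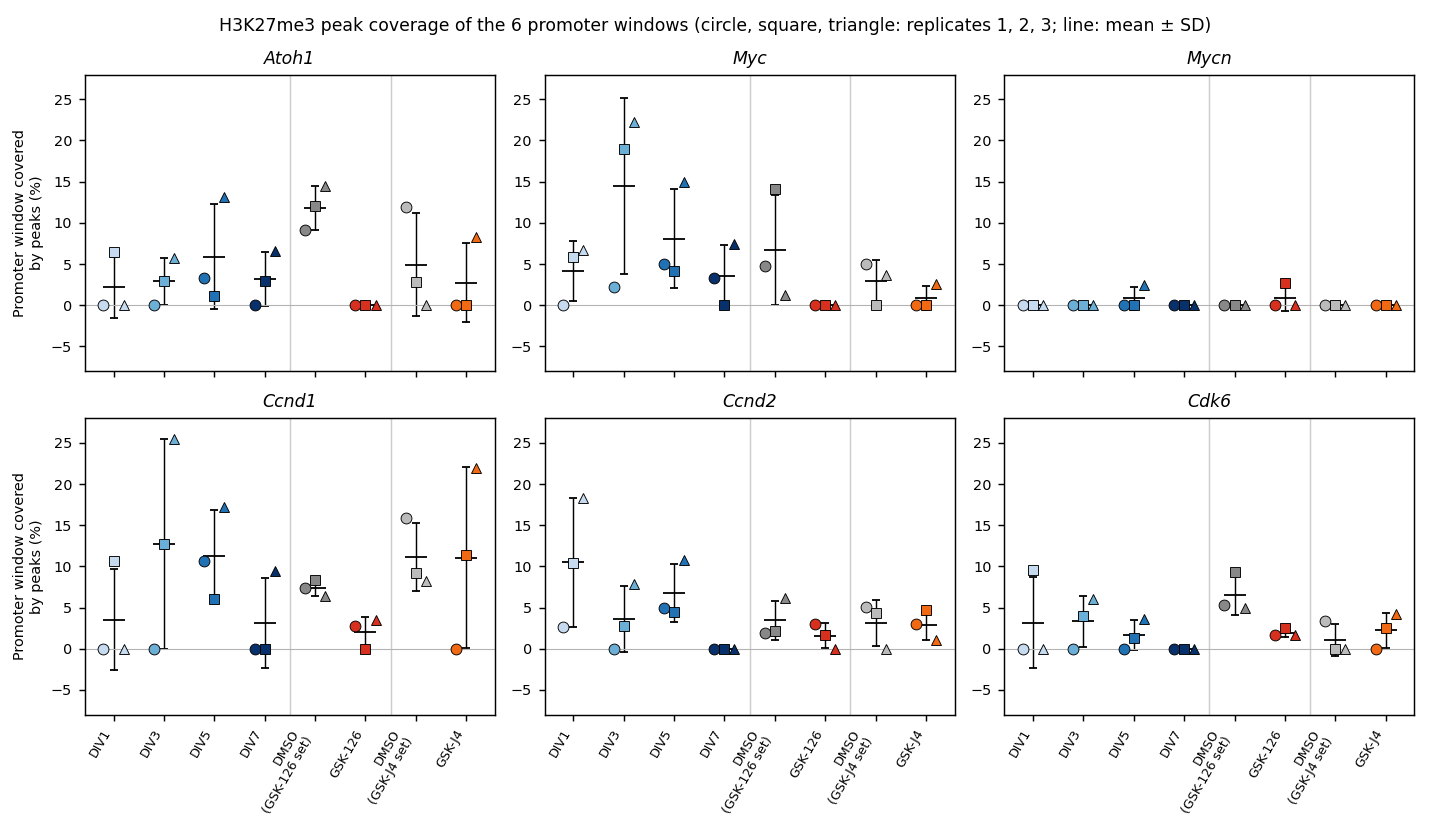
Percentage of each 6 kb promoter window under H3K27me3 peaks in all 24 libraries, by group. Symbols are single libraries and lines the mean ± SD of 3 replicates; Atoh1 is at 0% in the 3 GSK-126 libraries against 9.10% to 14.4% in their DMSO libraries, and Ccnd2 and Cdk6 are at 0% in all DIV7 libraries.

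The time course comparisons were fitted with limma over the 3584 promoters covered in at least 3 of the 12 libraries, of which 5 were members. Between DIV1 and DIV7, 40 of these promoters were called at an adjusted p under 0.05 (1.12%), 1 higher and 39 lower, and 0 of the 5 members. For the slope over days, 36 promoters were called (1.0%) and 0 members. Ccnd2 came nearest. Its DIV7 libraries lay 10.5 points below DIV1 (SE 3.64, 95% interval −18.6 to −2.35, limma adjusted p = 0.174), and its slope was −1.41 points per day (adjusted p = 0.186). The interval excluded 0 but the value did not pass the correction over all promoters. With single libraries left out, the difference ran from −14.4 points without DIV1 replicate 1 (adjusted p = 0.0164) to −6.54 without DIV1 replicate 3 (adjusted p = 0.482). In the former fit 19.3% of promoters were called lower, and in the fit without replicate 1 of every day, where Ccnd2 had an adjusted p of 0.0410, 17.9% were. Both fits widen the gap in list length between DIV1 and DIV7. At equal summed length the difference was −0.883 points, from 1 DIV1 library with a peak, too few to test.

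The other members gave no call over the time course. The DIV7 minus DIV1 differences were −3.18 points at Cdk6, −0.594 at Myc, −0.378 at Ccnd1 and 1.02 at Atoh1, with adjusted p-values of 0.494 to 0.994. The median over all promoters tested was −3.08 points. Of the intervals, those of Atoh1, Myc and Ccnd1 reached 8.43, 10.6 and 13.1 points above 0, so a gain of that size over the time course was not excluded. Between neighbouring days, limma called 8 promoters for DIV3 against DIV1 (0.223%), 0 for DIV5 against DIV3 (0.0%) and 0 for DIV7 against DIV5 (0.0%), and 0 of 5 members each time. At an unadjusted p under 0.05 the last of these steps had 6 promoters higher and 202 lower, and the DIV5 against DIV3 step 57 and 50.

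The GSK-126 comparison was fitted over 2385 promoters. Atoh1 fell by 11.8 points (SE 1.83, 95% interval −16.2 to −7.50, limma adjusted p = 0.00623), lower in 3 of 3 libraries. Over all promoters tested, 636 were called lower (26.7%) and 5 higher. Atoh1 and Myc had entered this table through their DMSO libraries alone, so neither the Atoh1 p-value nor the number of members called in it supports anything. Promoters were therefore also chosen by a peak in at least 3 of the other 18 libraries and in 1 of the 6 compared, a choice made after the data were seen. In that table of 3378 promoters 574 were called lower (17.0%), Atoh1 had an adjusted p of 0.00663, and Ccnd1 passed as well (adjusted p = 0.0476). With each of the 6 libraries left out in turn, Atoh1 lay 10.5 to 13.2 points below DMSO there, with limma adjusted p-values of 0.0100 to 0.0320. Ccnd1 did not pass in any of these 6 fits. Atoh1 met the demand for a peak in 1 of the 6 through DMSO alone, and its GSK-126 values were all 0%. Its p-values in that table are therefore a description and support nothing either. In the table first given, the other 4 members had lower means with GSK-126 without passing the test. The differences were −5.30 points at Ccnd1 (interval −9.28 to −1.32, adjusted p = 0.0562), −4.59 at Cdk6 (−8.83 to −0.363, adjusted p = 0.0974), −6.71 at Myc (−14.4 to 1.02, adjusted p = 0.164) and −1.87 at Ccnd2 (−6.31 to 2.58, adjusted p = 0.488). The median difference over all promoters tested was −4.77 points. At Atoh1, Myc, Ccnd1 and Cdk6 every GSK-126 library was below every DMSO library, as at 46.0% of the promoters tested. Atoh1 and Myc had a peak in all 3 DMSO libraries and in none with GSK-126, which held for 20.6% of the 1893 promoters with a peak in all 3 DMSO libraries. 

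**Figure D3:**
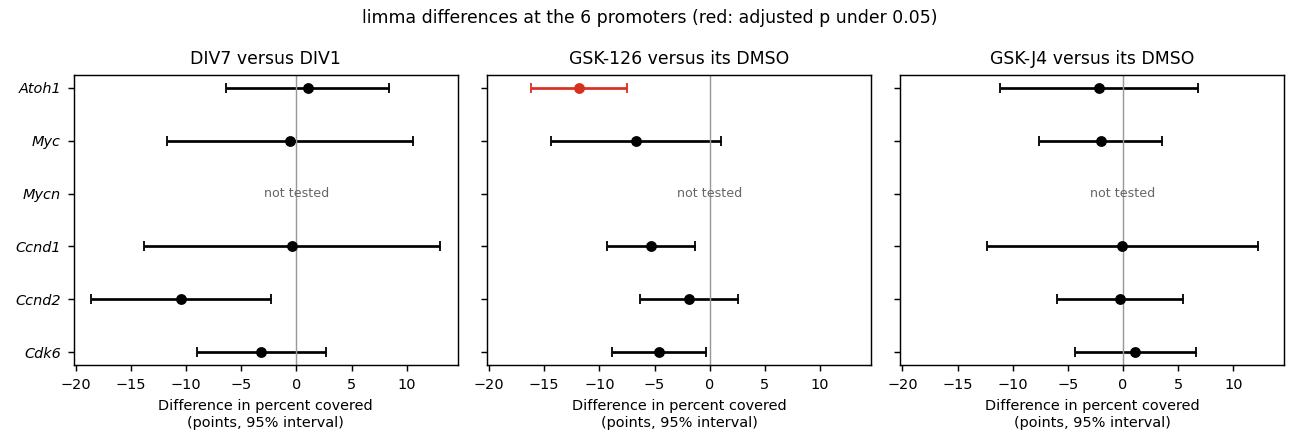
limma differences in percent covered for each member, in percentage points with 95% intervals, for DIV7 against DIV1 and for each drug against its own DMSO set. Atoh1 under GSK-126 is the single red point, at −11.8 points, though it entered that test through its DMSO libraries alone. Mycn was covered in too few libraries to test.

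Since the GSK-126 lists were shorter, each library's peaks were also ordered by p-value. Such ranks come from lists of different lengths and are given as a description. With the lowest p-values first, the Atoh1 peak entered the 3 DMSO lists after 1.58, 1.09 and 1.20 Mb. The full GSK-126 lists, with no Atoh1 peak, were 2.00, 1.07 and 1.63 Mb long. The Myc peak entered the DMSO lists later, after 1.94, 1.93 and 2.47 Mb. Ccnd1 entered the lists of GSK-126 replicates 1 and 3 after 1.35 and 0.490 Mb, against 1.03, 1.74 and 2.49 Mb in DMSO. Cdk6 entered after 1.56, 0.738 and 0.351 Mb in GSK-126 and after 1.29, 2.75 and 0.875 Mb in DMSO.

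When all 6 lists of the GSK-126 experiment were limited to the 1.07 Mb of the shortest, 23 promoters were called higher and 41 lower of 939 (4.37% lower), in place of 5 and 636. Cdk6 was then the only member tested, at 0.967 points higher (adjusted p = 0.849), and Atoh1 was at 0% in all 6 libraries. Without GSK-126 replicate 2, a choice made after the data were seen, the other 5 lists were compared at 1.63 Mb. The Atoh1 difference was then −6.97 points (interval −14.6 to 0.630, adjusted p = 0.345), and Ccnd1 1.69 points higher (adjusted p = 0.838). No promoter of 1268 was called by limma in that setting, and an unadjusted p under 0.05 was reached by 39 that were higher and 173 that were lower. The Atoh1 call therefore rests on the full lists, and the part of list length in it is not settled by these values.

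**Figure D4:**
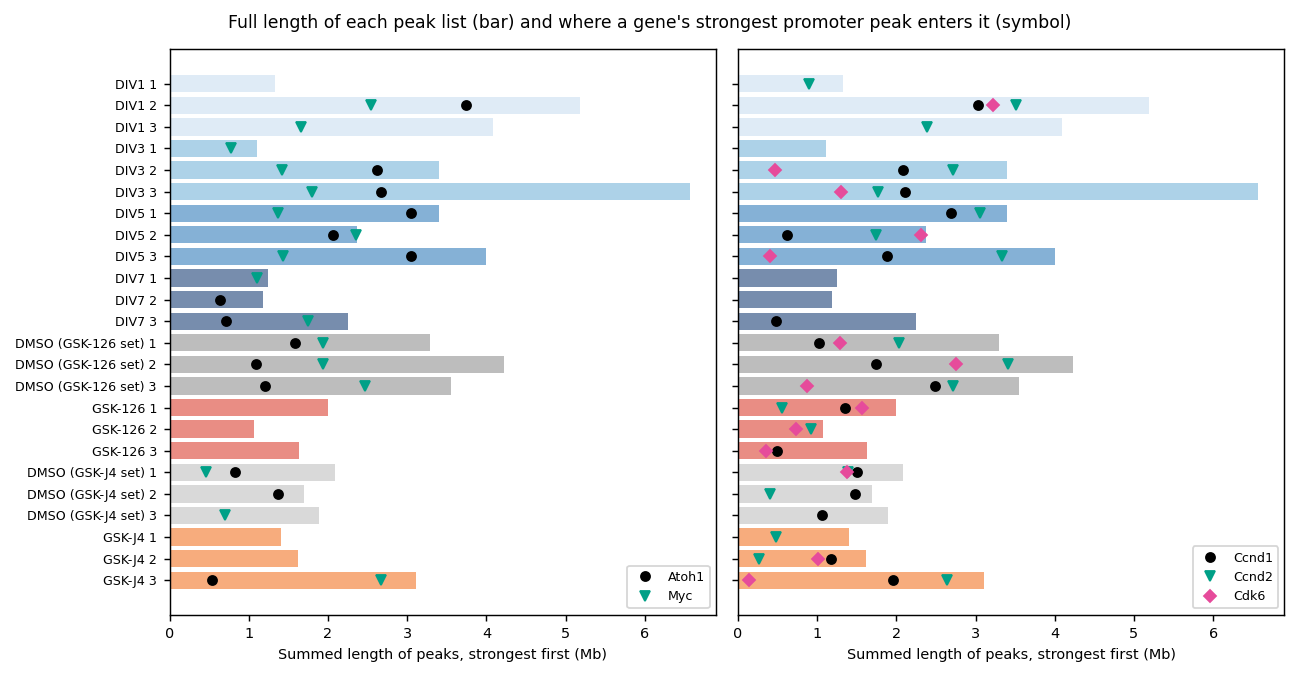
Full summed length of each library's peak list in Mb (bars) and the length, counted from the peak of lowest p-value, at which the first promoter peak of a gene enters (symbols). The left panel shows Atoh1 and Myc and the right panel Ccnd1, Ccnd2 and Cdk6. Atoh1 enters the 3 DMSO lists of the GSK-126 set between 1.09 and 1.58 Mb, and the GSK-126 lists, with no Atoh1 symbol, end at 1.07 to 2.00 Mb.

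Across all 24 libraries the peaks of the members went with long lists. Among the 12 longest lists, of at least 2.25 Mb, Myc had a peak in 12, Atoh1, Ccnd1 and Ccnd2 in 11 each and Cdk6 in 9. Among the 12 shortest they had one in 4, 3, 6, 7 and 5.

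With GSK-J4, limma called 0 of 2034 promoters (0.0%) and 0 of 5 members. At an unadjusted p under 0.05 there were 22 promoters higher and 9 lower, and no member among them. The differences were −2.16 points at Atoh1 (95% interval −11.1 to 6.80), −2.03 at Myc (−7.58 to 3.51), −0.0667 at Ccnd1 (−12.4 to 12.2), −0.239 at Ccnd2 (−5.94 to 5.47) and 1.13 at Cdk6 (−4.35 to 6.61), all with an adjusted p of 0.999. The intervals at Myc, Ccnd1 and Ccnd2 include the differences seen with GSK-126, and those at Atoh1 and Cdk6 end just short of them. The effects of the drugs were compared in 1 fit over 3026 promoters, in which 108 were called lower with GSK-126 (3.57%) and none higher, and 0 of 5 members. The difference of effects was −9.68 points at Atoh1 (interval −19.5 to 0.122, adjusted p = 0.220) and −5.73 at Cdk6 (−11.0 to −0.494, adjusted p = 0.176). The difference at Atoh1 was thus not shown to differ between the drugs, which were given at different doses.

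Of 69 other genes of the same circuits, 30 had a peak in any library, beside 38.0% of all promoters. Among these 30, Zic2, Id2, Mxd1, Mxd3, Mxd4, Mnt, Ccne2, Ccna2, Cdk1, Cdkn2d, E2f1, E2f3 and E2f5 had their only peak in 1 GSK-126 library. The share of all promoters with that pattern was not worked out, so it cannot be read as a trait of these genes. For GSK-126, 8 of the 69 could be tested, with 2 lower and none higher beside the 26.7% called lower over all promoters. The median difference of the 8 was −3.01 points. E2f8, an atypical E2F that represses cell cycle genes (5′ end at chromosome 7, 48881596), had peaks in 21 libraries. It was 15.2% ± 3.73 covered in DMSO and 0% in all 3 GSK-126 libraries (SD, n = 3, adjusted p = 0.00492). Ccna1, cyclin A1, known for its role in meiosis (chromosome 3, 55055501), fell from 8.99% ± 3.80 to 0.728% ± 1.26 (adjusted p = 0.0364). Like Atoh1, E2f8 and Ccna1 met the filter of that test only with their DMSO libraries. Neither their adjusted p-values nor the count of 2 therefore supports anything. Ccna1 was also 0% in the 3 DIV1 libraries and 9.82% ± 0.913 at DIV7, which did not pass the test (adjusted p = 0.154).

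Among 19 precursor and granule lineage factors, 10 had a peak in any library, 4 were tested for DIV7 against DIV1 and for GSK-126, and none was called. Id3, an inhibitor of differentiation, had peaks in 22 libraries, with 9.34% ± 7.61 in DMSO and 6.47% ± 6.90 in GSK-126 (adjusted p = 0.677). Sox2, a stem cell factor, had peaks in 17 libraries, with 9.78% ± 1.61 and 3.64% ± 3.17 (adjusted p = 0.0709). Of 10 other cyclins and kinases 5 had a peak, Ccne2, Ccna2 and Cdk1 in 1 GSK-126 library only. Ccnd3, the third D-type cyclin, had one in 17 libraries, with 10.6% ± 6.95 at DIV1 and 2.89% ± 3.28 at DIV7 (adjusted p = 0.344). Of 10 MYC partners and antagonists 4 had a peak, each in 1 GSK-126 library, and none was tested. Of 12 replication and proliferation genes 11 had none, and Mki67 had one in 4 libraries. Of 7 CDK inhibitors 5 had a peak, and the 1 tested for GSK-126 was Cdkn1c, the gene of p57, named here after its values were seen. It ran against the others, with 1.04% ± 1.80 in DMSO and 7.40% ± 6.70 in GSK-126 (adjusted p = 0.197).

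Marker promoters of the labelled cells and of other cell types were examined in the same comparison. Of 10 granule neuron markers, Pax6, Zic1, Map2, Tubb3 and Etv1 had no peak in any library. The summed coverage of all 10 was 0% to 2.27% in DMSO and 2.23% to 7.32% in GSK-126 libraries. Rbfox3, Cbln1 and Zic2 were at 0% in DMSO and averaged 1.37%, 1.51% and 0.744% in GSK-126. Neurod1 was lower, with 0.756% in DMSO and 0.322% in GSK-126. Of 25 markers of other cerebellar cell types 12 had a peak, beside 38.0% of all promoters, 6 were tested and 2 fell with GSK-126, beside 26.7% of all promoters tested. These were Gdf10, a Bergmann glia gene, from 19.1% ± 3.5 to 1.16% ± 2.01 (adjusted p = 0.00377), and Cldn5, an endothelial tight junction gene, from 25.4% ± 4.34 to 15.4% ± 3.79 (adjusted p = 0.0450). The summed coverage of the astrocyte and Bergmann glia list was 15.2% to 21.8% in DMSO and 0% to 3.48% in GSK-126. All of it was Gdf10, since Gfap, Aqp4 and Aldh1l1 had no peak in any library and Slc1a3 none in these groups. Gdf10 met the filter of the test only with its DMSO libraries, so its adjusted p-value supports nothing. The vascular list summed to 21.7% to 30.2% and 12.6% to 19.7%, all of it Cldn5, as Pecam1 and Foxc1 had no peak there. The oligodendrocyte list gave 6.25% to 16.8% and 2.30% to 5.52%, with Pdgfra and Mbp lower in GSK-126 and Sox10 higher. The Purkinje list gave 2.80% to 11.3% and 0%, the microglia list 0% to 5.90% and 0%. The interneuron list gave 0% in DMSO and 0% to 1.70% in GSK-126. The part of cell composition in the Atoh1 result was not tested.

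Likeness between promoters was taken as the share of libraries with a peak at both among those with a peak at either. Trpm6 (87.5%), Parp12 (86.7%) and Hk2 (82.4%) came nearest to Atoh1. For Myc these were Arap1 and Ntsr2 (93.8% each) and Cpne8 (88.9%), for Ccnd1 Thegl (94.1%), Slc7a2 and Fbln7 (89.5% each), for Ccnd2 Kcnk13 (94.7%), Cdh22 (94.4%) and Rflna (90.0%), and for Cdk6 Htr7 (87.5%), Ffar4 and Slc45a3 (82.4% each). Between the 5 frequently covered members the shares were 50.0% to 72.2%, with Atoh1 and Myc at 66.7%. All these shares are taken over the same 24 libraries, with their differing list lengths.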

How the data were processed

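Reads of 24 CUT&RUN libraries were trimmed with Trimmomatic 0.38, checked with FastQC, aligned to mm10 with STAR 2.7.2b and passed to MACS2 2.1 for broad peaks, with bedtools 2.25.0 and DESeq2 1.36.0 also named, per the submitters' processing notes. The study's methods state an FDR of 0.1. The control used for the calls is not given in the sources used here. Each deposited list holds the peaks of 1 library, and all 24 differed from each other. The deposited fold enrichment of a peak is a ratio over the local background of the caller. The deposited −log10 p and −log10 q values refer to the library's own list. Read counts were not used here, so depth is unknown.

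Windows came from the GENCODE M21 annotation. The percentage covered was tested two-sided with limma 3.58.1 (R 4.3.3, lmFit and robust eBayes). Each fit took all promoters covered in at least 3 of its libraries, with Benjamini-Hochberg adjustment over all of them. The fits were checked on simulated data, but the outcome is not given here. That check is therefore no evidence on how limma behaves where all libraries of a group lack a peak, as for Atoh1 with GSK-126. The 12 time course libraries shared 1 fit, each drug and its DMSO set another. The DMSO set of GSK-126 was assigned from titles that name DMSO only. Replicates are separate cultures per the study's methods. Alternatives were equal summed list length, a −log10 q of at least 2, windows of 1 and 10 kb, every transcript start, a filter of 1 library, a filter on the libraries outside the GSK-126 comparison (added after the data were seen), the replicate number as a block and each library left out. The members, the related gene lists and the tests were chosen with earlier results of these data known. Genes outside the members were named where they were called or had a peak in 12 libraries or more, up to 4 per list, and for likeness the 3 highest per member, leaving out overlapping windows and gene models named Gm or Rik. Mki67, Cdkn1c, the marker genes and the genes with their only peak in 1 GSK-126 library were named after their values were seen. Sequences were read from the GRCm38 assembly of RefSeq.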

Additional observations from a re-analysis of the deposited data

How the results depend on the processing

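The alternatives were 20 for each time course comparison, 21 for GSK-126, 13 for GSK-J4 and 19 for the difference of the drug effects. Of the member differences under them, 617 kept their direction and their side of the threshold, 6 passed it only there, 1 no longer passed it and 36 changed sign. Atoh1 with GSK-126 entered the table through the 3 DMSO libraries alone and could not be tested there without any 1 of them. Its calls under other windows or filters are therefore not counted as support. At equal summed length 0 members were called, and Atoh1, at 0% in every library of that comparison, was not tested. At equal length without GSK-126 replicate 2, Atoh1 was tested and did not pass, and 0 members were called. With every transcript start 2 members were called, Ccnd1 (−4.99 points, adjusted p = 0.0367) beside Atoh1, and 2 as well with promoters chosen by 3 of the other 18 libraries, 1 (Atoh1) with each library left out in that table. Ccnd2 was called for DIV7 against DIV1 and for the slope without DIV1 replicate 1 and without replicate 1 of every day (1 member each, slope −2.04 points per day), so that with libraries left out 1 at a time the members called ran from 0 to 1 in both, as with GSK-126. In these 2 settings 673 of 3495 and 591 of 3301 promoters were called lower for DIV7 against DIV1. For the slope 827 of 3495 and 897 of 3301 were. Values that changed sign were Cdk6 with GSK-126 at equal length (0.967), Ccnd1 there without GSK-126 replicate 2 (1.69), Ccnd1 with GSK-J4 in 10 kb windows (0.302), and Ccnd1 and Ccnd2 in the difference of the drug effects at equal length (1.23 and 0.478). With libraries left out, sign changes lay in these ranges: Atoh1 −0.697 to 2.89 for DIV3 against DIV1, −0.653 to 5.32 for DIV5 against DIV3, −5.04 to 0.936 for DIV7 against DIV5 and −0.672 to 3.18 for DIV7 against DIV1. Ccnd1 gave −7.75 to 4.97 for DIV5 against DIV3, −3.53 to 3.16 for DIV7 against DIV1, −0.652 to 0.349 for the slope, −5.48 to 5.48 for GSK-J4 and −10.8 to 0.175 for the difference of the drug effects. Ccnd2 gave −1.81 to 0.719 for GSK-J4, Cdk6 −1.43 to 3.34 for DIV3 against DIV1, and Myc −2.68 to 1.20 for DIV7 against DIV1 and −0.983 to 0.00477 for the slope. None of these was called. Promoters called, in place of 8 for DIV3 against DIV1, were 0 with a −log10 q of at least 2, in 1 kb windows, with the replicate block and without replicate 1 of every day, 5 with every transcript start and 16 with promoters covered in 1 library. For DIV7 against DIV5 they were 6 at equal length. For DIV7 against DIV1, in place of 40, they were 18 at equal length, 0 with the −log10 q minimum, 4 and 61 in 1 and 10 kb windows and 595 without replicate 1 of every day. For the slope, in place of 36, they were 1, 0, 4, 60 and 904 under these, and 18 with promoters covered in 1 library. For GSK-126, in place of 641, they were 64 at equal length, 20 with the −log10 q minimum and 0 at equal length without replicate 2, and, with promoters chosen by the other 18 libraries, 417, 254 and 271 without DMSO replicate 2 and GSK-126 replicates 2 and 3. For the difference of the drug effects, in place of 108, they were 23 at equal length, 1 with the −log10 q minimum, 67 with every transcript start, 65 with promoters covered in 1 library and 0 with the replicate block. With libraries left out they ran from 0 to 64 for DIV3 against DIV1 (64 without DIV1 replicate 1), 0 to 1 for both later steps, 3 to 680 for DIV7 against DIV1 (680 without DIV1 replicate 1, 3 without DIV7 replicate 1), 7 to 839 for the slope (839 without DIV1 replicate 1, 7 without DIV1 replicate 2), 278 to 658 for GSK-126 (658 without GSK-126 replicate 1, and 278 to 354 without any other library) and 22 to 248 for the difference of the drug effects (22, 23 and 64 without GSK-126 replicates 2, 3 and 1, 56 without replicate 2 of its DMSO set, 37 and 50 without replicates 2 and 3 of the GSK-J4 DMSO set, and 248 and 65 without GSK-J4 replicates 1 and 3). Replicate numbers were not taken to pair the samples, since not every same-numbered pair correlated above 0.1. Same-numbered libraries correlated from −0.207 to 0.625 in the time course, 0.0254 to 0.124 in the GSK-126 set and −0.0178 to 0.0483 in the GSK-J4 set, and other-numbered ones from −0.527 to 0.479, −0.101 to 0.0332 and −0.0797 to 0.0740. The block left 1 member called with GSK-126 and none elsewhere. The causes of these shifts were not tested, beyond the lower number of promoters that shorter lists leave to test. Depth is unknown, and 3 libraries per group limit what could be called.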
